A study of Homo sapiens with 6 samples.

Results

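R-loop peaks on opposite DNA strands that touched or overlapped were examined in untreated and N2-heptynyl-dG-treated HEK293T cells, a line derived from human embryonic kidney. A touching pair is a plus-strand peak and a minus-strand peak of the same list that overlap or have at most 2 bp between them. The pairs were chosen by the measured peak positions alone, so the gap within a pair is a property of the selection and not a finding. In untreated cells, 876 of 10231 peaks (8.56%) formed 438 touching pairs, and in treated cells 1012 of 11085 peaks (9.13%) formed 506. No peak belonged to more than 1 pair.

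An R-loop forms when RNA pairs with the template strand of DNA and leaves the other strand unpaired. Because the unpaired strand has the sequence of the RNA, the strand of a peak tells the direction of transcription. Many mammalian promoters are transcribed in both directions from separate start sites, either towards a gene on each side or towards a gene on one side and an unstable upstream antisense RNA on the other. A minus-strand peak that ends where a plus-strand peak begins is here called a divergent pair, since transcription on both strands runs away from the meeting point. A plus-strand peak that ends where a minus-strand peak begins is called convergent.

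The peaks come from spKAS-seq, which labels guanines of unpaired DNA with N3-kethoxal and sequences the labelled fragments so that their strand is known. Cells were left untreated or cultured with 10 µM N2-heptynyl-dG for 3 h, a nucleoside that cells incorporate into their DNA and that leaves an alkyl group in the minor groove. All cells were then exposed to 5 mM N3-kethoxal for 10 min. The series has 2 samples of untreated cells, 2 of treated cells and 2 inputs, and there is 1 peak list per condition, attached to replicate 1. The lists hold positions and strands and no heights or p-values, so depth is unknown, no value has a spread between replicates, and no test between the conditions could be made. Intervals in brackets are 95% intervals, Wilson for shares and from ranked values for medians, and they cover counting error over pairs or peaks only.

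The sequences of 4 divergent junctions are printed to show what lies where the peaks met. All are from GRCh37, plus strand, 5′ to 3′, and capitals mark 4 letter strings that are common in promoters, or their reverse complements: GGGCGG (the GC box), CCAAT (the CCAAT box), TATAAA (the TATA box) and CCGGAAG (a core of ETS factor sites). HSPD1/HSPE1 (chr2:198364622-198364901, junction after base 120 of 280) separates the mitochondrial chaperonin and its co-chaperonin. NPAT/ATM (chr11:108093605-108093854, junction after base 125 of 250) separates a coactivator of histone gene transcription and a kinase of the DNA damage response. H2BC12/H2AC12 (chr6:27114601-27114900, junction after base 150 of 300) separates an H2B and an H2A histone gene. ID4 (chr6:19837326-19837625, middle of the peak overlap after base 50 of 300) encodes an inhibitor of basic helix-loop-helix transcription factors and had no annotated start on the other strand nearby.
HSPD1/HSPE1: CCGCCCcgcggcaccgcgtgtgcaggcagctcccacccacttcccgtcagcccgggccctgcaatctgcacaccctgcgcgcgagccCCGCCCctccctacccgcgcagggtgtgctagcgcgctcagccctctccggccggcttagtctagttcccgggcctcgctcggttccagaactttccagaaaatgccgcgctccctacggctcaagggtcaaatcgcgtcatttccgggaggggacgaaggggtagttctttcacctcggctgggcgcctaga
NPAT/ATM: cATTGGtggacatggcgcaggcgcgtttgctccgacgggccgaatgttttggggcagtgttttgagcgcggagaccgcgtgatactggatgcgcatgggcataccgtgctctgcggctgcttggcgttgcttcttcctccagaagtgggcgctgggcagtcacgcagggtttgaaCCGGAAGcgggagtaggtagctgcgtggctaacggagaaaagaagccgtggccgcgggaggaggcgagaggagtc
H2BC12/H2AC12: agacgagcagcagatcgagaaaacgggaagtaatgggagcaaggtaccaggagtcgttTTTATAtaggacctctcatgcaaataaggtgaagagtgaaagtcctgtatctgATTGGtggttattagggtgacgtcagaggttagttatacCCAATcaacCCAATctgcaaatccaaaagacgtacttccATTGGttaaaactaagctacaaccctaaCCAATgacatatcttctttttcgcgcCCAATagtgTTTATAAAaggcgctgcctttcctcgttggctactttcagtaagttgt
ID4: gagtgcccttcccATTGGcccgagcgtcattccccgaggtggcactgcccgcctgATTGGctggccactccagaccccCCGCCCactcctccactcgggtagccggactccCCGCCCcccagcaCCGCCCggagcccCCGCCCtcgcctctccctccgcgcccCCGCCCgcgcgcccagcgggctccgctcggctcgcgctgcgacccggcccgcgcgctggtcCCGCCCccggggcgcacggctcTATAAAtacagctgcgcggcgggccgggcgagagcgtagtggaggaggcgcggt
The histone junction held the CCAAT box at 4 places of the plus strand and 2 of the minus strand. Its TATA boxes lay 104 bp to the right of the junction for the plus strand and 92 bp to the left for the minus strand, and a further minus-strand match 102 bp to the right overlapped the first. The HSPD1/HSPE1 stretch held GGGCGG at 2 places, both on the minus strand, and none of the other 3 letter strings. The NPAT/ATM stretch held CCGGAAG 50 bp to the right of the junction. The ID4 stretch held GGGCGG at 6 places, all on the minus strand, and TATAAA 196 bp to the right. A match describes the letters of the window and is not a bound site.

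In untreated cells the pairs were almost all divergent, 435 of 438 (99.3%, 98.0 to 99.8), with 3 convergent. In treated cells 501 of 506 were divergent (99.0%, 97.7 to 99.6) and 5 convergent. Widths were multiples of 250 bp for all but 6 of 10231 untreated and 3 of 11085 treated peaks, so a gap could take few values. A gap of 0 bp was found in 390 untreated and 439 treated pairs, and an overlap of 250 bp in 48 and 67. Gaps of 1 to 2 bp did not occur, and the first pairs outside the rule were 250 bp apart, 88 among untreated and 113 among treated peaks. Of these, 87 and 110 were divergent. The same orientation prevailed up to 1000 bp, where 139 of 143 untreated and 185 of 190 treated pairs were divergent. At gaps above 1000 and up to 5000 bp, 62 of 86 and 80 of 109 were divergent. The limit of 2 bp thus left out further pairs of the same orientation.

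**Figure D1:**
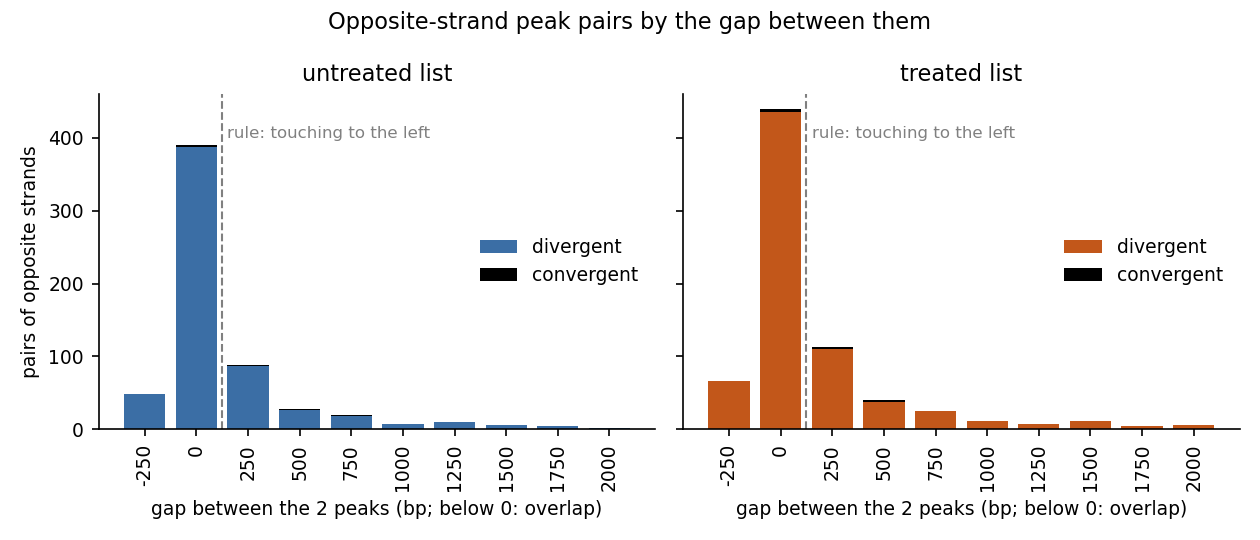
Number of pairs of a plus-strand and a minus-strand peak (y axis) by the gap between them in bp (x axis, an overlap is below 0) in the untreated (left) and treated (right) list, with convergent pairs in black. Pairs to the left of the dashed line meet the rule, and the bar at 0 bp holds 390 untreated and 439 treated pairs.

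The members were narrow. Of the member peaks, 71.5% of 876 untreated and 69.5% of 1012 treated ones were 500 bp wide, against 38.3% and 39.8% of the other peaks of each list. Their mean width was 611 bp (SD 217) and 613 bp (SD 215), and that of the others 917 bp (SD 530) and 883 bp (SD 509). Pairs were unevenly spread over chromosomes. The lowest share of untreated peaks in pairs was 2.63%, on chromosome 16, and of treated peaks 2.40%, on chromosome 19. Chromosome 18 had 15.4% in the treated list, 10 pairs among 130 peaks.

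Annotated transcript starts lay on the outer sides of the junction, each strand on its own side. In untreated cells, minus-strand starts were most frequent 100 to 200 bp to the left of the junction, where 37.5% of the 435 divergent junctions had one, and plus-strand starts were most frequent 100 to 200 bp to the right, at 37.9%. In treated cells the same windows held 36.7% and 37.9% of 501 junctions. In the window 100 to 200 bp on the opposite side, the shares were 8.97% and 6.21% in untreated and 7.98% and 6.99% in treated cells. Of all arms of divergent pairs, 72.3% of 870 (69.2 to 75.2) and 72.0% of 1002 (69.1 to 74.6) had a start of their own strand within 1000 bp of the junction. The corresponding shares at the 5′ border of lone peaks, those with no peak of the opposite strand within 5 kb, were 45.9% and 46.8%.

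**Figure D2:**
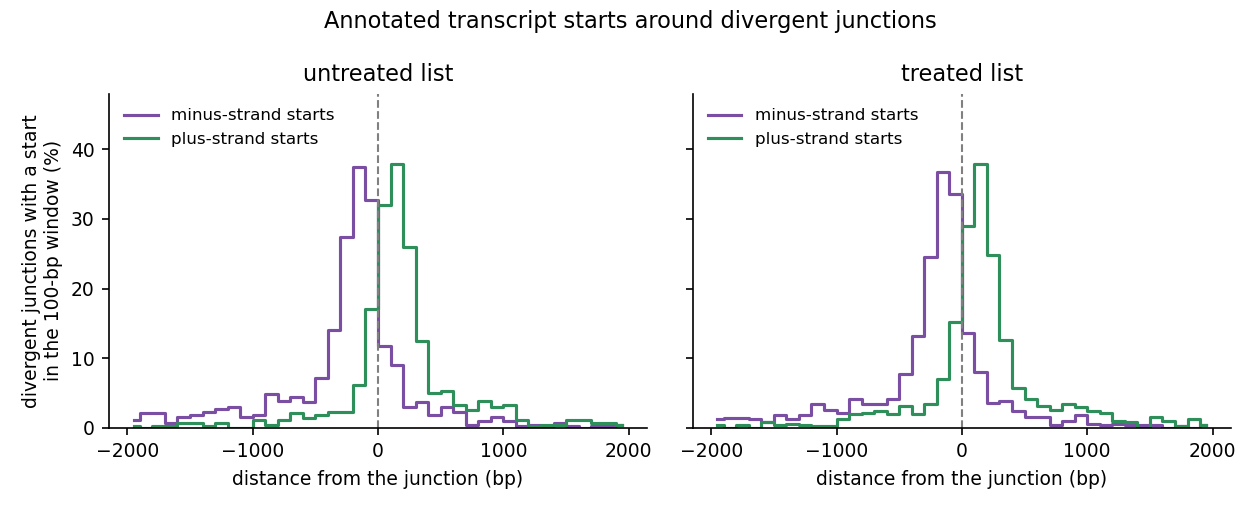
Percent of divergent junctions (y axis) with an annotated transcript start in each 100-bp window of distance from the junction in bp (x axis), for minus-strand (purple) and plus-strand (green) starts, in the untreated (left) and treated (right) list. The highest minus-strand window lies 100 to 200 bp left and the highest plus-strand window 100 to 200 bp right of the junction in both lists.

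A start on each strand within 1000 bp was found at 208 of 435 untreated divergent junctions (47.8%, 43.2 to 52.5) and 234 of 501 treated ones (46.7%, 42.4 to 51.1). The share at 5′ borders of lone peaks was 18.4% of 8878 and 18.5% of 9458. Divergent pairs that were close but did not touch, with 3 to 1000 bp between them, had a start on each strand in 71 of 139 (51.1%, 42.9 to 59.2) and 97 of 185 (52.4%, 45.3 to 59.5), which overlaps the interval of the touching pairs. At least 1 protein-coding start was near 91.3% of untreated and 92.0% of treated junctions. The shares were 89.2% and 88.1% for divergent pairs 3 to 1000 bp apart, and only 50.4% and 51.8% for 5′ borders of lone peaks. Transcript ends were rare by comparison. An end on each strand was near 10 and 13 divergent junctions, and at least 1 end near 83 (19.1%) and 93 (18.6%).

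Junctions between 2 protein-coding genes numbered 88 in untreated cells (20.2%, 16.7 to 24.3) and 85 in treated cells (17.0%, 13.9 to 20.5). Among divergent pairs that were close but did not touch, the share was 25.9% (19.3 to 33.8) of 139 in untreated cells. In treated cells it was 20.0% (14.9 to 26.3) of 185. Both intervals overlapped those of the touching pairs, so coding starts on both strands were not particular to touching pairs. At lone peaks the share was 6.23% and 6.33%. The nearest coding starts of the 2 strands were a median 168.5 bp apart (quartiles 99.5 and 239) in untreated and 171 bp apart (quartiles 95.0 and 255) in treated cells, and in 80 of 88 and 75 of 85 pairs they lay head to head without crossing. GENCODE holds 974 head-to-head pairs of protein-coding genes with starts within 1000 bp, of which 68 (6.98%) carried a touching divergent pair in untreated and 67 (6.88%) in treated cells. Most of the annotated head-to-head promoters thus had none.

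Junctions with a coding start on 1 strand and a noncoding start on the other numbered 105 (24.1%) and 135 (26.9%), and the noncoding partner was an annotated long noncoding RNA at 100 and 129 of them. The largest group had a coding start on 1 strand and no annotated start on the other, 204 junctions (46.9%) in untreated and 241 (48.1%) in treated cells. In these 2 groups together the nearest coding start lay a median 73.0 bp (quartiles 5.00 and 155) to the side of its own arm in untreated and 64.5 bp (4.75 and 140) in treated cells. It lay beyond the junction, on the side of the other arm, in 67 of 309 untreated and 85 of 376 treated pairs. Over both groups, the arm without the coding start was close in mean width to the coding arm. The means were 586 bp (SD 165) against 600 bp (SD 205) over 309 untreated pairs and 596 bp (SD 181) against 618 bp (SD 226) over 376 treated pairs. In the 135 treated pairs with a noncoding start on the other strand, the coding arm had a mean of 652 bp and its partner 604 bp. The coding arm was wider in 42 of these pairs, narrower in 28 and equal in 65. Noncoding starts alone were found on both strands at 15 untreated and 14 treated junctions and on 1 strand at 9 and 12, and 14 junctions of each list had no start within 1000 bp.

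The widest divergent pairs of the untreated list were chosen by summed width, 2500 bp in each of 5 pairs. Of these, 3 lay between histone genes. At H2BC12/H2AC12 on chromosome 6, a minus-strand peak from 27113501 to 27114750 met a plus-strand peak from 27114751 to 27116000, and each covered the start and the nearest annotated end of the histone gene on its strand. The H2BC12 start was 117 bp left and the H2AC12 start 134 bp right of the junction. The treated list had the same 4 borders. At H2AC25/H2BC26 on chromosome 1, a 1000-bp minus-strand peak and a 1500-bp plus-strand peak met at 228645760, again with the same borders in both lists. At H2AC17/H2BC17 on chromosome 6, both peaks were 1250 bp wide in both lists, but the minus-strand peak lay 250 bp further from the junction in treated cells (27859751 to 27861000 against 27860001 to 27861250), so the treated pair no longer touched. Core histone genes stood on both sides of 4 of 88 untreated and 4 of 85 treated coding junctions, a grouping made after the values were seen.

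A further one of the widest untreated divergent pairs was at RNVU1-18, a variant gene of U1 small nuclear RNA. The RNVU1-18 pair on chromosome 1 (minus 149222330 to 149224329, plus 149224330 to 149224829) had the same borders in both lists. U1 genes are a multicopy family. Bowtie2 at its defaults, which the authors used, reports 1 alignment for a read that fits several copies equally well.

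In treated cells, 3 of the 5 widest divergent pairs were RNVU1-18, H2AC25/H2BC26 and H2BC12/H2AC12 again. The other 2 were wider than in untreated cells, but they were chosen by their width in the treated list, which favours such a difference. At ID4 the plus-strand peak spanned 19837251 to 19839500 (2250 bp) in treated against 19837251 to 19838000 (750 bp) in untreated cells, while the minus-strand peak was 19837001 to 19837500 in both. At C6orf62/LINC02828 the minus-strand peak spanned 24719501 to 24721500 in treated against 24720501 to 24721500 in untreated cells, and the plus-strand peak began 250 bp lower, at 24721251.

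A list of 12 well-known head-to-head promoters was also looked up. A touching pair was found at 2 of the 12 in each list, HSPD1/HSPE1 and NPAT/ATM. At HSPD1/HSPE1 the minus-strand peak was 198363492 to 198364741 and the plus-strand peak 198364742 to 198365491 in both lists. The nearest HSPD1 start was 77 bp left and the nearest HSPE1 start 122 bp right of the junction, both inside their own arm and the printed stretch. The starts used to look up this promoter were other ones, 198364564 for HSPD1 and 198365103 for HSPE1. Both lay further out, inside their own arm but outside the printed stretch. At NPAT/ATM the minus-strand peak was 108092980 to 108093729 in both lists. The plus-strand peak was 108093730 to 108094229 in untreated cells and began 250 bp lower, at 108093480, in treated cells, so that the peaks abutted in the first and overlapped by 250 bp in the second. The nearest NPAT start was 365 bp left and the nearest ATM start 41 bp right of the untreated junction. Peaks on both strands within 1000 bp, touching or not, were present at 3 promoters of the list in untreated and 4 in treated cells, a peak on 1 strand only at 2 and 4, and no peak at 7 and 4.

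**Figure D3:**
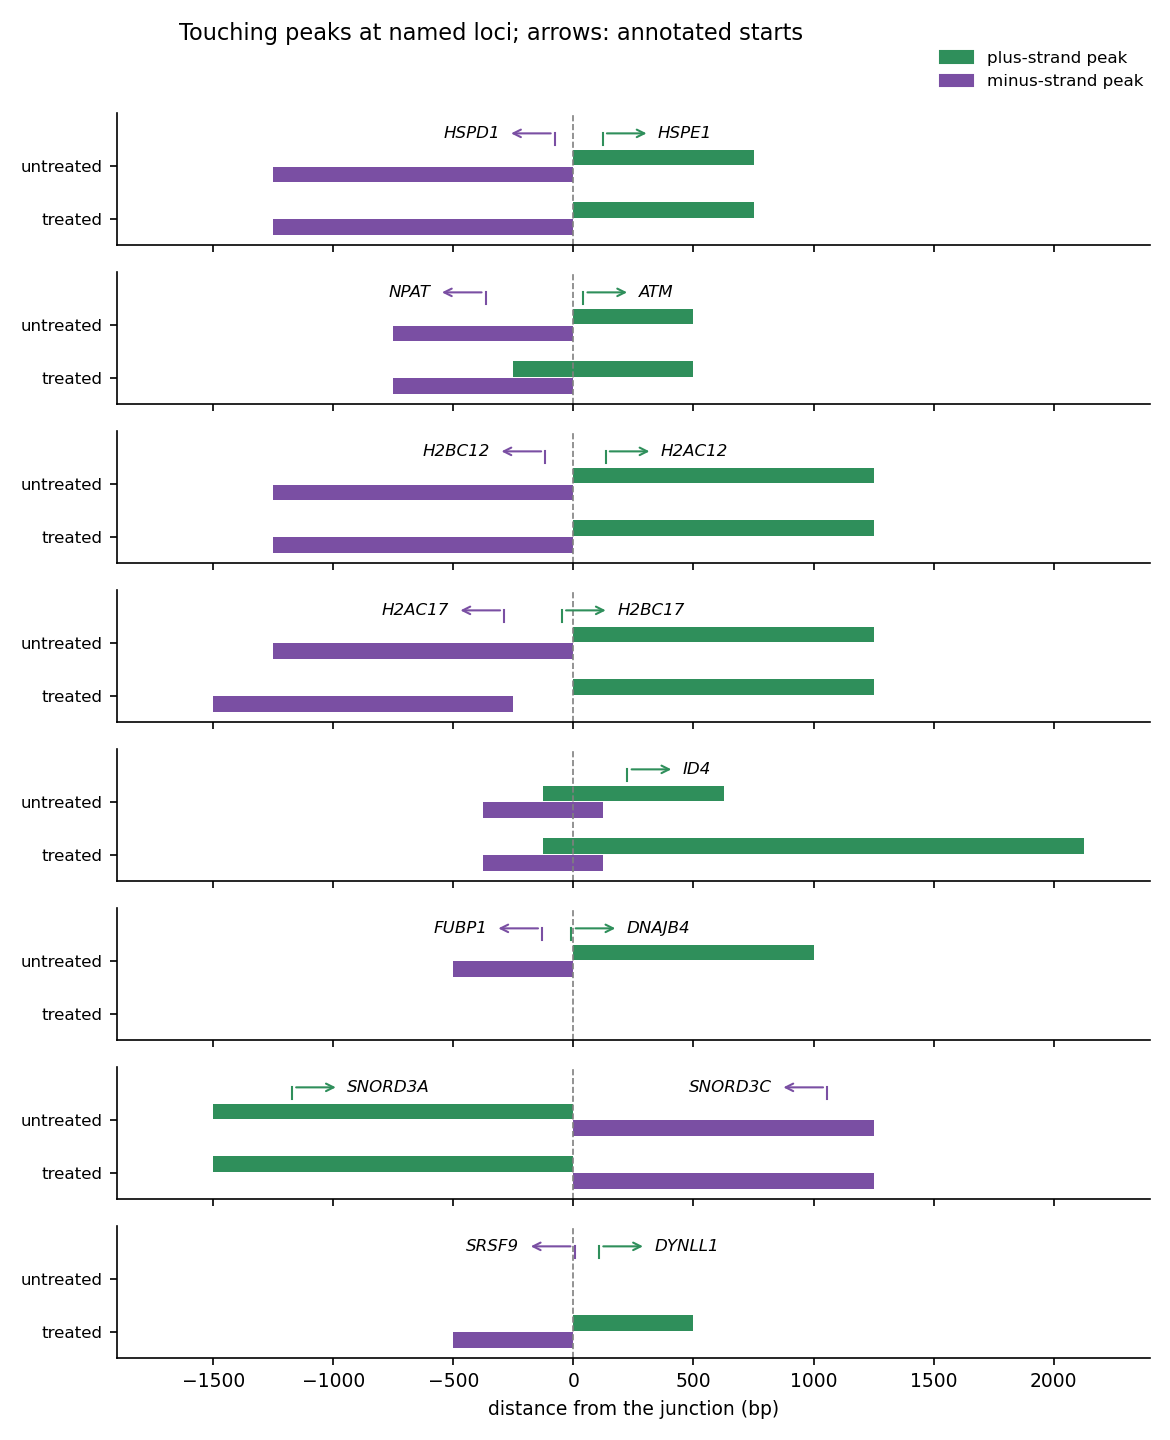
Plus-strand (green) and minus-strand (purple) peaks of the untreated (upper row) and treated (lower row) list by distance in bp from the junction (x axis, dashed line at 0) at 8 loci, with arrows at the annotated starts. The borders are the same in both lists at HSPD1/HSPE1, H2BC12/H2AC12 and SNORD3A/SNORD3C, the minus-strand peak ends 250 bp short of the junction at H2AC17/H2BC17 in treated cells, and FUBP1/DNAJB4 and SRSF9/DYNLL1 have peaks in 1 list only.

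Base composition at divergent junctions resembled that of coding promoters more than that of lone peaks. The median GC content of the 500 bp centred on the junction was 66.0% in untreated and 66.7% in treated cells, against 55.8% and 56.4% at 5′ borders of lone peaks and 64.6% at the starts of 19819 protein-coding genes. Divergent pairs 3 to 1000 bp apart had a median of 64.6% at their midpoints in both lists and CpG ratios of 0.832 and 0.833. The median CpG observed over expected ratio of the touching pairs was 0.867 and 0.870, against 0.518 and 0.546 at lone peaks and 0.778 at coding starts. Mean GC content in 100-bp windows was highest at or near the junction, 68.0% in untreated and 68.5% in treated cells, and fell on both sides to between 42.6% and 43.5% at 1500 bp. Of 435 and 501 divergent junctions, 433 and 500 lay on chromosomes 1 to 22 and X and entered these values.

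Within 250 bp of the junction and on either strand, the GC box was present at 91.7% of untreated and 91.4% of treated divergent junctions, against 48.4% and 50.2% of lone-peak borders and 69.7% of coding starts. The CCAAT box was present at 55.2% and 51.4%, against 48.1% and 46.0% at lone peaks and 43.4% at coding starts. The ETS core was present at 25.4% and 26.8%, against 12.2% and 12.1% and 16.9%. The TATA box was less frequent at the junctions, 7.16% and 7.40%, than at lone peaks, 18.5% and 17.6%, or at coding starts, 11.7%. Divergent pairs 3 to 1000 bp apart held the GC box at 85.6% and 84.9%, the CCAAT box at 47.5% and 53.0%, the ETS core at 17.3% and 21.6% and the TATA box at 8.63% and 5.41%, so the high share of GC boxes and the low share of TATA boxes were not particular to touching pairs. At junctions between 2 coding genes, the ETS core was present at 31 of 88 (35.2%) and 36 of 85 (42.4%), and the TATA box at 3 and 4. The histone junction printed above is thus 1 of few with a TATA box. The GC box is made of G and C alone, so its share can follow GC content, and that part was not tested.

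A stretch with 4 runs of at least 3 G, separated by 1 to 7 bases, can fold into a G-quadruplex and is often found near R-loops. It was present on either strand within 250 bp of 51.3% of untreated and 52.6% of treated divergent junctions, 28.6% and 30.6% of lone-peak borders and 46.7% of coding starts. Divergent pairs 3 to 1000 bp apart held it around 48.9% and 43.8% of their midpoints. Counted per side, the strand read away from the junction, which is the strand of the peak, held it on 17.1% of 866 untreated and 16.2% of 1000 treated sides. The other strand held it on 16.9% and 19.3%.

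GC skew, (G-C)/(G+C) on the plus strand, differed between the sides of the untreated junctions over stretches of 250 bp. Its median was -0.0235 in the 250 bp to the left and 0.0340 in the 250 bp to the right, and the median step from left to right was 0.0524 (0.0297 to 0.0788) over 433 junctions, positive at 60.5% of them. A positive step means that, summed over both arms, the strand of the peaks had more G than C. In treated cells the median step was 0.0115 (-0.00868 to 0.0328) over 500 junctions, positive at 52.6%. The untreated step depended on the stretch and was 0.0102 (-0.00419 to 0.0301) with 500 bp and 0.0316 (-0.00859 to 0.0658) with 100 bp on each side, where both intervals included 0. At the midpoints of divergent pairs 3 to 1000 bp apart, the step with 250 bp was 0.0662 (0.0167 to 0.111) in untreated and 0.0168 (-0.0269 to 0.0666) in treated cells. With 500 bp it was 0.0493 (0.0147 to 0.0828) and 0.0165 (-0.0122 to 0.0416), and with 100 bp 0.0153 (-0.0410 to 0.0650) and -0.00786 (-0.0416 to 0.0309). For comparison, the step along the gene strand was 0.0568 (0.0530 to 0.0605) at coding starts. Along the strand of the peak, it was -0.00130 (-0.00671 to 0.00418) and -0.0112 (-0.0164 to -0.00632) at lone-peak borders of the untreated and treated list. The plus-strand step was 0.106 (0.0752 to 0.149) at the 88 untreated and 0.0670 (0.0341 to 0.136) at the 85 treated junctions between 2 coding genes. Where only 1 strand had a coding start, the step read along the coding gene was 0.0258 (-0.0233 to 0.0524) and -0.000507 (-0.0371 to 0.0245).

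The lists differed in the pairs that only one of them held. Divergent junctions that touched in both lists had a median step of 0.0417 (0.0203 to 0.0690) at the untreated and 0.0379 (0.00201 to 0.0685) at the treated position of the junction. With 500 bp on each side these values were 0.000969 (-0.0195 to 0.0216) and -0.00765 (-0.0315 to 0.0181), and with 100 bp they were 0.0367 (-0.0159 to 0.0723) and 0.0119 (-0.0238 to 0.0579). The 178 junctions that touched only in untreated cells had 0.0761 (0.0302 to 0.119), and the 245 that touched only in treated cells had -0.00980 (-0.0567 to 0.0198). These last 2 sets share no pair, and their intervals cover counting error over junctions only. The difference between them was not tested. With 500 bp the values of the pairs touching in 1 list were 0.0337 (0.000919 to 0.0668) and -0.0239 (-0.0440 to -0.00395), and with 100 bp they were 0.0283 (-0.0347 to 0.0820) and 0.0134 (-0.0359 to 0.0491), where the intervals overlapped. At the borders of lone peaks without a peak in the other list, the step was -0.00165 (-0.0113 to 0.00872) for untreated and -0.0207 (-0.0286 to -0.00978) for treated peaks. With 1 list per condition, treatment and library cannot be told apart here. CCAAT was present at 60.0% of the junctions touching in both lists, 48.3% of those touching only in untreated and 44.1% of those touching only in treated cells.

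**Figure D4:**
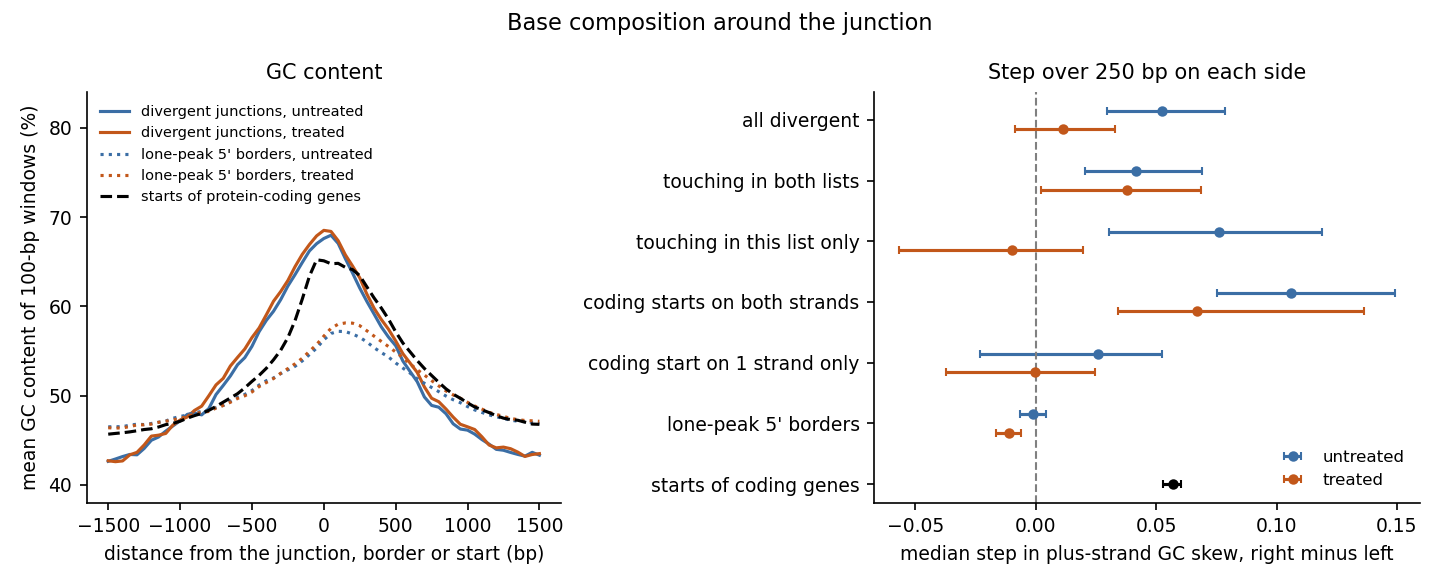
Left, mean GC content in percent of 100-bp windows (y axis) by distance in bp (x axis) from divergent junctions, 5′ borders of lone peaks and starts of protein-coding genes. Right, median step in GC skew from the left to the right 250 bp (x axis) with its 95% interval from ranked values, for divergent junctions of the untreated (blue) and treated (orange) list and for comparison sites. GC content is highest at the junctions, and the step of pairs touching in 1 list only is 0.0761 in untreated and -0.00980 in treated cells.

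A member was counted as present in the other list when a peak of its strand there overlapped it by at least 1 bp. Of all untreated peaks 74.6%, and of all treated peaks 69.2%, were present in the other list by this rule. Of the untreated members 699 of 876 (79.8%, 77.0 to 82.3) were present in the treated list, and of the treated members 721 of 1012 (71.2%, 68.4 to 73.9) in the untreated list. The shares of the other peaks were 74.1% and 69.0%, close to those of the members. At equal width the distance was larger. Other peaks, weighted to the widths of the members, were present in 66.1% and 59.2%. Among 500-bp peaks, 75.6% of 626 untreated members and 61.9% of 3581 other untreated peaks were present in the other list, and 63.6% of 703 and 53.1% of 4007 in the treated list.

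Both members of 283 of 438 untreated pairs (64.6%, 60.0 to 68.9) and of 273 of 506 treated pairs (54.0%, 49.6 to 58.2) were present in the other list. In 259 of these the members touched again, which is 59.1% of the untreated and 51.2% of the treated pairs. In 24 untreated and 14 treated pairs both members were present but apart. Only 1 member was present for 133 untreated pairs (30.4%) and 175 treated pairs (34.6%), split between minus (70 and 89) and plus (63 and 86). Neither member was present for 22 untreated (5.02%, 3.34 to 7.49) and 58 treated pairs (11.5%, 8.97 to 14.5). The treated list had 68 pairs more than the untreated one, 15.5% more, while it had 8.35% more peaks. For pairs that lay 3 to 1000 bp apart, both members were present in the other list in 68 of 143 (47.6%) and 80 of 190 (42.1%).

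**Figure D5:**
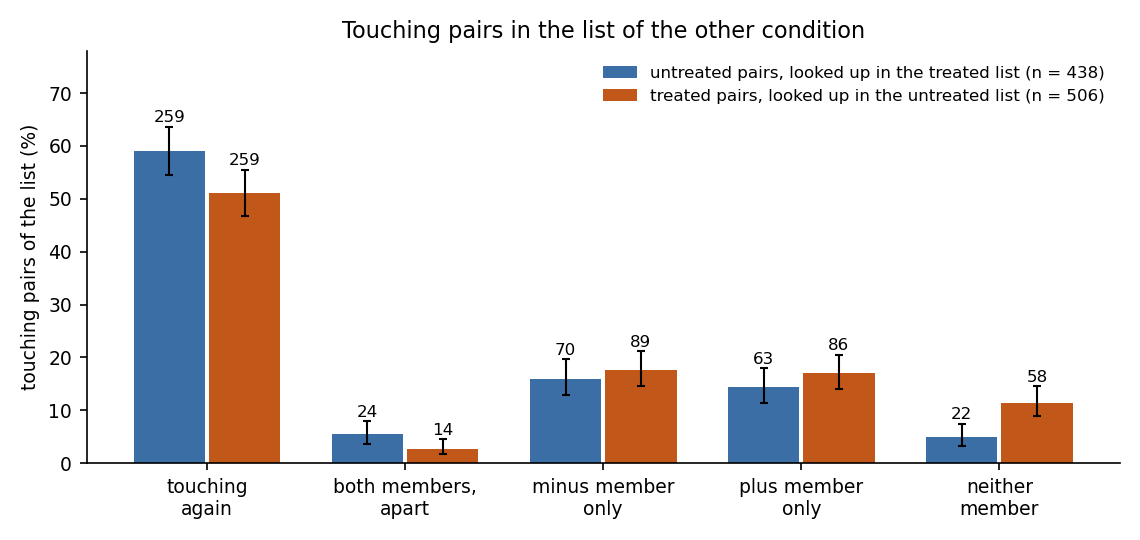
Percent of the touching pairs of each list (y axis) by what the list of the other condition holds at the same place (x axis), for 438 untreated (blue) and 506 treated (orange) pairs. Numbers above the bars are pairs, error bars are 95% Wilson intervals, and neither member was present for 22 untreated and 58 treated pairs.

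The 259 pairs that touched in both lists, 256 divergent and 3 convergent, kept their place closely. All 4 borders were the same in 146, and the junction was the same in 232. It was moved by less than 250 bp in 26 and by 250 bp in 1, to a higher coordinate in 17 and to a lower one in 10. The minus-strand arm had the same width in 210 pairs, was wider in treated cells in 25 and narrower in 24. The plus-strand arm had the same width in 194, was wider in 39 and narrower in 26.

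By type of promoter, divergent pairs that touched again were, in the untreated list, 52 of 88 (59.1%) between 2 coding genes, 62 of 105 (59.0%) with a coding and a noncoding start, and 115 of 204 (56.4%) with a single coding start. In the treated list these shares were 52 of 85 (61.2%, 50.5 to 70.8), 62 of 135 (45.9%, 37.7 to 54.3) and 115 of 241 (47.7%, 41.5 to 54.0). Pairs with noncoding starts on both strands were few and touched again more often, 13 of 15 untreated (86.7%, 62.1 to 96.3) and 13 of 14 treated pairs (92.9%, 68.5 to 98.7). With a noncoding start on 1 strand only, 7 of 9 and 7 of 12 did. By count, the larger number of divergent pairs in treated cells thus lay in types with a coding start on at most 1 strand. It did not lie in pairs between 2 coding genes. The interval of each type's share of divergent pairs overlapped between the lists, and the difference was not tested. Where exactly 1 member of a pair with 1 coding side was present in the other list, it was the coding arm in 63 of 99 untreated pairs (63.6%, 53.8 to 72.4) and in 65 of 144 treated pairs (45.1%, 37.2 to 53.3). Among pairs with a coding and a noncoding start, these numbers were 18 of 29 and 17 of 52. In treated pairs with a coding and a noncoding start, the arm also present in the untreated list was thus more often the noncoding arm, 35 of 52. Treated pairs with a coding start on 1 strand only showed no such tendency.

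Examples of pairs between coding genes were picked after their values were seen, for genes whose products are well characterised. TIPIN/MAP2K1, a replication fork protection factor and the kinase MEK1, touched in both lists with starts 49 bp left and 42 bp right, and the MAP2K1 arm was 500 bp wide in untreated and 1000 bp in treated cells. XPO5/POLH, the microRNA precursor exporter and a translesion DNA polymerase, touched in untreated cells, and only the POLH arm was present in treated cells. At RPA3/UMAD1, with a subunit of the single-strand binding protein RPA, only the RPA3 arm was present in treated cells. In the other direction, H2BC21/H2AC20 touched in treated cells, with a 1250-bp and a 500-bp arm, and only the H2BC21 arm was present in untreated cells. SERP1/EIF2A, an endoplasmic reticulum membrane protein gene and a translation initiation factor gene, touched in treated cells, and only the EIF2A arm was present in untreated cells. At SRSF9/DYNLL1, a splicing factor and a dynein light chain, treated cells had a 500-bp peak on each strand (120907046 to 120907545 and 120907546 to 120908045 on chromosome 12) and untreated cells none.

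The widest divergent pairs of which neither member was present in the other list were, in untreated cells, at BCL7B on chromosome 7 (minus 72971039 to 72971788, plus 72971789 to 72972788), at FUBP1/DNAJB4 and at INTS3. BCL7B is a subunit of the BAF chromatin remodelling complex, FUBP1 a single-stranded DNA-binding regulator, DNAJB4 a heat shock co-chaperone and INTS3 a subunit of the Integrator complex. In treated cells they were at MTHFD1L, a mitochondrial folate enzyme, on chromosome 6 (minus 151186532 to 151187531, plus 151187532 to 151188281), at CD47, a cell surface ligand that inhibits phagocytosis, and at KIF2A, a microtubule-depolymerising kinesin. The peaks overlapped by 250 bp at CD47 and KIF2A.

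The convergent pairs were few. An annotated start lay within 1000 bp of none of the 3 untreated and of 2 of the 5 treated convergent junctions. All 3 untreated convergent pairs were also in the treated list with the same 4 borders. The widest of them spans the genes of U3 small nucleolar RNA, which guides cleavage of ribosomal RNA precursors, the plus-strand SNORD3A and the minus-strand SNORD3C of chromosome 17. The plus-strand peak was 19091001 to 19092500 and the minus-strand peak 19092501 to 19093750, and the ends of the 2 genes lay 474 bp left and 477 bp right of the junction. The 2 genes are inverted copies. Aligned on their starts, 1089 of 1091 bases (99.8%) within the peaks were the same when the minus-strand gene was read on its own strand. Of the 31-base words of the minus-strand peak, 999 of 1220 also stood inverted in the plus-strand peak, whereas none of 433 untreated and none of 500 treated divergent pairs shared any such word. The first 120 bases of each gene show this, SNORD3A read from the plus strand (chr17:19091329-19091448) and SNORD3C from the minus strand (chr17:19093439-19093558) of GRCh37, with the 1 base that differs in capitals.
SNORD3A: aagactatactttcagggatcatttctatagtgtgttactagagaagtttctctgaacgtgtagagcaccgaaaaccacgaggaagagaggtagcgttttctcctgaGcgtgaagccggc
SNORD3C: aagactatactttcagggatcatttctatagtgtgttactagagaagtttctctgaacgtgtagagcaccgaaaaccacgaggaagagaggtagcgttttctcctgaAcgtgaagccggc
A read of the shared sequence aligns as well to the plus strand of one copy as to the minus strand of the other, and by default Bowtie2 reports only 1 of them. Their part in this pair was not tested.

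The second convergent pair lay on chromosome 1 (plus 147735573 to 147736822, minus 147736823 to 147737322), where the plus-strand peak covers RNU1-120P, an annotated U1 pseudogene. The third lay on chromosome 6 (plus 28908501 to 28909250, minus 28909251 to 28909750) with no gene of the GENCODE annotation under either peak. Other annotations were not searched. Neither shared inverted words. The 2 convergent pairs found only in treated cells were at DENND2B on chromosome 11, where the peaks overlapped by 250 bp and the minus-strand member was also present in untreated cells, and at HECW2 on chromosome 2, of which neither member was present. DENND2B encodes a Rab guanine nucleotide exchange factor and HECW2 a ubiquitin ligase. An end on each strand within 1000 bp was found at 1 of 3 untreated and 1 of 5 treated convergent junctions, the U3 pair in both cases.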

How the data were processed

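Peak lists of spKAS-seq in HEK293T cells were used, 1 for untreated and 1 for treated cells. Per the labels and the study's methods, the authors used Trim Galore for trimming, Bowtie2 at its defaults (1 alignment reported per read) for alignment to hg19 and Picard against duplicate reads, and called R-loops from both replicates after an earlier protocol, with bedtools and deepTools also named. Versions, windows, thresholds and any filter on mapping quality are not given in the sources used here. The deposited values are chromosome, start, end and strand of each peak, in bp and with no score or count, and nearly all widths are multiples of 250 bp.

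Pairs had a gap of at most 2 bp, and their class was set by the lower midpoint. The junction was the middle of the gap or overlap. Starts and ends within 1000 bp came from GENCODE release 44 mapped to GRCh37 (64486 genes, 254413 transcripts). Stretches of 250 bp on each side gave GC skew, GC content and letter strings, and sites masked over more than 50% were left out. Contigs and chromosome Y did not enter base composition (2 untreated pairs and 1 treated pair). Named pairs were, per list and class, the 5 widest, the 3 widest with neither member in the other list, and any at 12 head-to-head promoters. Some pairs that these rules name are not reported here. Further examples were picked after their values were seen. The members and lists were chosen with earlier results of these data known. Samples without a list and inputs have no values of their own here, and the files do not show whether the second replicates stand behind the lists. Shares carry 95% Wilson intervals and medians intervals from binomial ranks. No p-value was computed, since peaks are not replicates. Pair finding was checked against bedtools 2.31.1 and tested on simulated data, as was the skew step. Scripts ran in Python 3.11.15 on samtools 1.23.1, matplotlib 3.10.9, pandas 2.3.3, numpy 2.4.6, pysam 0.24.0 and scipy 1.17.1. Alternatives were gaps of 0 and 250 bp, chromosomes 1 to 22 and X only, peaks of at least the median width, class by lower start, other rules of overlap, distances of 500 and 2000 bp, coding transcripts only, and stretches of 100 and 500 bp.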

Additional observations from a re-analysis of the deposited data

How the results depend on the processing

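No paired analysis was possible because there is 1 peak list per condition and no value per replicate, so leaving out a replicate was not possible either. Of 58 values recomputed under an alternative over 14 results, 38 stayed within the counting interval of the value reported, or within 1.5 times it for numbers of pairs, 19 moved beyond it and 1 changed sign. Keeping only peaks of at least the median width left 37 untreated and 46 treated pairs. In the untreated list 97.3% of these were divergent, 56.8% had both members in the other list, 48.6% touched again, 58.3% of divergent junctions had a start on each strand and 100% of 1 convergent junction had an end on each strand. In the treated list the last 4 values were 41.3%, 39.1%, 62.2% and 100%. With the same start, end and strand required, both members were in the other list for 33.3% of untreated and 28.9% of treated pairs. With up to 250 bp allowed between the matched peaks, 63.7% of untreated pairs touched again. With protein-coding genes only, starts on each strand were near 20.2% of untreated and 17.0% of treated divergent junctions, and ends on each strand near 0% of convergent ones in both lists. With 500 bp on each side, the median step in GC skew was 0.0102 over untreated and -0.0174 over treated junctions, so the sign of the treated value, whose interval with 250 bp included 0, depended on the stretch. The cause was not tested. Depth behind the peaks is unknown.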
